A study of Homo sapiens with 2 samples.

Results

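Of 23181 RefSeq genes placed on chromosomes 1 to 22, X and Y, 35 genes of nucleolar ribosome biogenesis are described here. They were listed by their function, by a rule that uses no measured value, though earlier results of these data were known by then. They were found as the transcript models that carry their RefSeq transcripts or share an exact intron with them on the same strand. All 35 had fragments in both libraries, and 35 of 35 passed the filter of at least 300 exonic bases and a mean exon level of at least 1 FPKM, which 12072 genes passed in all.

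The RNA was poly(A)-selected from HCT116 cells, an established line from a human colorectal carcinoma, with inducible (tetracycline) knockdown of USP49, a deubiquitinase known for acting on histone H2B. The growth protocol gives this inducible line, under blasticidin and puromycin, for both libraries, and the series title calls the control cells wild type. A single library was labelled control and a single one USP49 knockdown. The treatment text, harvest 36 h after doxycycline, is the same for both, and the labels do not say whether the RNA control was induced, whether the line is 1 clone, or which knockdown sequence it carries. With 1 library per group there was no replicate check, no difference between conditions was tested, and every interval given covers counting error only.

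Ribosomes are built in the nucleolus. RNA polymerase I transcribes a long precursor of the ribosomal RNAs, and box C/D and box H/ACA ribonucleoproteins, guided by small nucleolar RNAs (snoRNAs), methylate and pseudouridylate it. The small subunit processome folds and cleaves its first part, a separate set of factors assembles the large subunit, and late factors take both subunits toward the cytoplasm. Many of these genes are known targets of MYC, which with MAX binds the E-box CACGTG, and several carry snoRNAs in their own introns.

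Sequences were taken up first because they do not depend on the levels measured here. The genes were listed by function and many are known MYC targets, so the shares below may not be independent of that choice. In the RefSeq promoter table of GRCh38.p14, 29 of the 35 genes had an entry; BOP1, RRS1, RRP1B, NOP58, NOLC1 and RRP12 had none. Of the 29, 15 (51.7%) had CACGTG, which reads the same on both strands, between 250 bases before and 50 bases after an annotated start. The share was 8.77% of the 27305 genes in the table and 12.7% of the 9755 measured genes in it. Between 60 bases before and 30 bases after the start it was 10 of 29 (34.5%), beside 3.60% of all genes in the table and 5.55% of the measured ones. A gene with more than 1 start in the table was counted once. A few windows of that length, chosen to cover 4 roles, follow with the E-box in capitals:

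FBL (chr19:39846350-39846439, - strand): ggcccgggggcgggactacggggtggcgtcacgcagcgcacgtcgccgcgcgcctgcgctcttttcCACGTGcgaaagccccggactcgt
RRP9 (chr3:51941875-51941964, - strand): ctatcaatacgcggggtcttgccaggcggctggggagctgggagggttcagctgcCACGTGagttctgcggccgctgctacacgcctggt
NOP10 (chr15:34343107-34343196, - strand): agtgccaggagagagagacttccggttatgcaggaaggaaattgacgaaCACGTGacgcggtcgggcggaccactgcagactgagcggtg
PES1 (chr22:30591881-30591970, - strand): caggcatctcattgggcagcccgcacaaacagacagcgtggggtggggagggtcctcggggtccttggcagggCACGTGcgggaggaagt
UTP18 (chr17:51260486-51260575, + strand): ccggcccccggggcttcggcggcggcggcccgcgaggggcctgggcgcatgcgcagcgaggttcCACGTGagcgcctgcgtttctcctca
WDR43 (chr2:28894607-28894696, + strand): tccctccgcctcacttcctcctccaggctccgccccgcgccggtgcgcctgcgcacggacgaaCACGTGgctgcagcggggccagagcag

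The E-box stands at another distance from the start in each window. A match describes these letters and not a bound site.

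The introns of 7 of the 34 genes with introns held 20 annotated snoRNAs, 16 of the box C/D and 4 of the box H/ACA kind. The hosts were GNL3, NOP56, NOP58, DKC1, NCL, WDR43 and TSR1. They were 20.6% of the 34 genes, beside 1.26% of 11744 measured genes with introns. Of the hosts, NOP56, NOP58 and DKC1 themselves encode core proteins of the snoRNA particles. The following box C/D snoRNAs, from the GENCODE release 29 transcripts on GRCh38, are printed because 4 of them lie in genes for box C/D proteins and the fifth in NCL, the most abundant gene of the set; capitals mark box C (TGATGA) and box D (CTGA) where these exact letters occur near the ends:

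SNORD86 (chr20:2656097-2656182, + strand): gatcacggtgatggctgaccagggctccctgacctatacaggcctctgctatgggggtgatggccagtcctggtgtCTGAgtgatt
SNORD57 (chr20:2656939-2657010, + strand): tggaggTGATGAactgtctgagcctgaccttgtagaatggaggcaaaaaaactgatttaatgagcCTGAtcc
SNORD110 (chr20:2654212-2654286, + strand): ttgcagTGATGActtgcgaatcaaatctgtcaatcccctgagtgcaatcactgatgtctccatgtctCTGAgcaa
SNORD11 (chr2:202293051-202293134, + strand): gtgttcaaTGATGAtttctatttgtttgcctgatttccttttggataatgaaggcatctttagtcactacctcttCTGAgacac
SNORD82 (chr2:231460371-231460440, - strand): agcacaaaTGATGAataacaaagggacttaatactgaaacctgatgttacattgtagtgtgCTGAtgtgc

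SNORD86 has no exact TGATGA near its 5′ end, and the other 4 have both boxes. The snoRNAs themselves were close to absent from these poly(A) libraries. Over the 20, the models held 13 fragments in the control library against 16.4 in the library labelled knockdown, with at most 3.44 on any one, and 7 were at 0 in both. The host genes had exon levels of at least 62.4 FPKM in each library.

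The targeted gene was checked before the libraries were compared. USP49 (chr6:41873361-41971077, hg18) had an exon level of 0.907 FPKM in the control library against 1.1 FPKM in the library labelled knockdown, from 46.5 and 69 fragments. The depth-scaled ratio was 1.2, with a counting interval of 0.82 to 1.78, and so the exon level was not lower in the library labelled knockdown. The FPKM summed over its models was 2.88 and 1.1, a log2 difference of −0.88, so the direction depends on the measure and the library is called "labelled knockdown" throughout. Of 9 colorectal epithelial markers, 6 were at 1 FPKM or more in both libraries (summed exon level 603 and 549 FPKM), while VIL1 and CDX1 had no fragments. Fibroblast markers summed to 6.89 and 6.61 FPKM (1 of 5 at 1 FPKM or more, COL1A2 and DCN at 0), leukocyte markers to 9.56 and 13.2 (1 of 4, PTPRC at 0) and endothelial markers to 0.181 and 0.137 (0 of 4). The libraries held 16381149 and 19964369 fragments.

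Levels are given as exon FPKM, fragments on the gene's RefSeq exons per kilobase of exon, scaled to the library's total in the way of FPKM, and differences as log2(FPKM + 1) of the library labelled knockdown minus the control. The ribosome biogenesis genes were well expressed in both libraries. Their exons took 127286 fragments in the control library against 156757 in the library labelled knockdown, 0.777% and 0.785% of all fragments. Of the 35, 20 stood at or above the 90th percentile of exon level among measured genes and 30 at or above the 75th, and the lowest, BOP1, was at the 47.6th.

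The highest was NCL, nucleolin, an abundant nucleolar RNA-binding protein, with 639 FPKM in the control library against 621 in the library labelled knockdown, rank 7 of 12072. FBL, the methyltransferase fibrillarin, followed with 246 FPKM in each library, rank 77. NOLC1, a phosphoprotein that shuttles through the nucleolus and binds snoRNA particles, was at 186 and 195 FPKM, rank 154, and NOP56, a core box C/D protein, at 195 and 178 FPKM, rank 161. On exons these 4 thus differ in direction: NCL and NOP56 were lower in the library labelled knockdown, NOLC1 higher and FBL level. By the sum over models all 4 were higher, NCL and NOLC1 by 0.07 each, FBL by 0.20 and NOP56 by 0.04. With models of its own strand only, NOP56 was higher as well. The lowest exon levels belonged to BOP1 (13.1 and 12.4 FPKM) and UTP20 (15.4 and 16.8 FPKM). By FPKM summed over its models BOP1 was at 52.7 and 24.6, so its place depends on the measure.

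**Figure D1:**
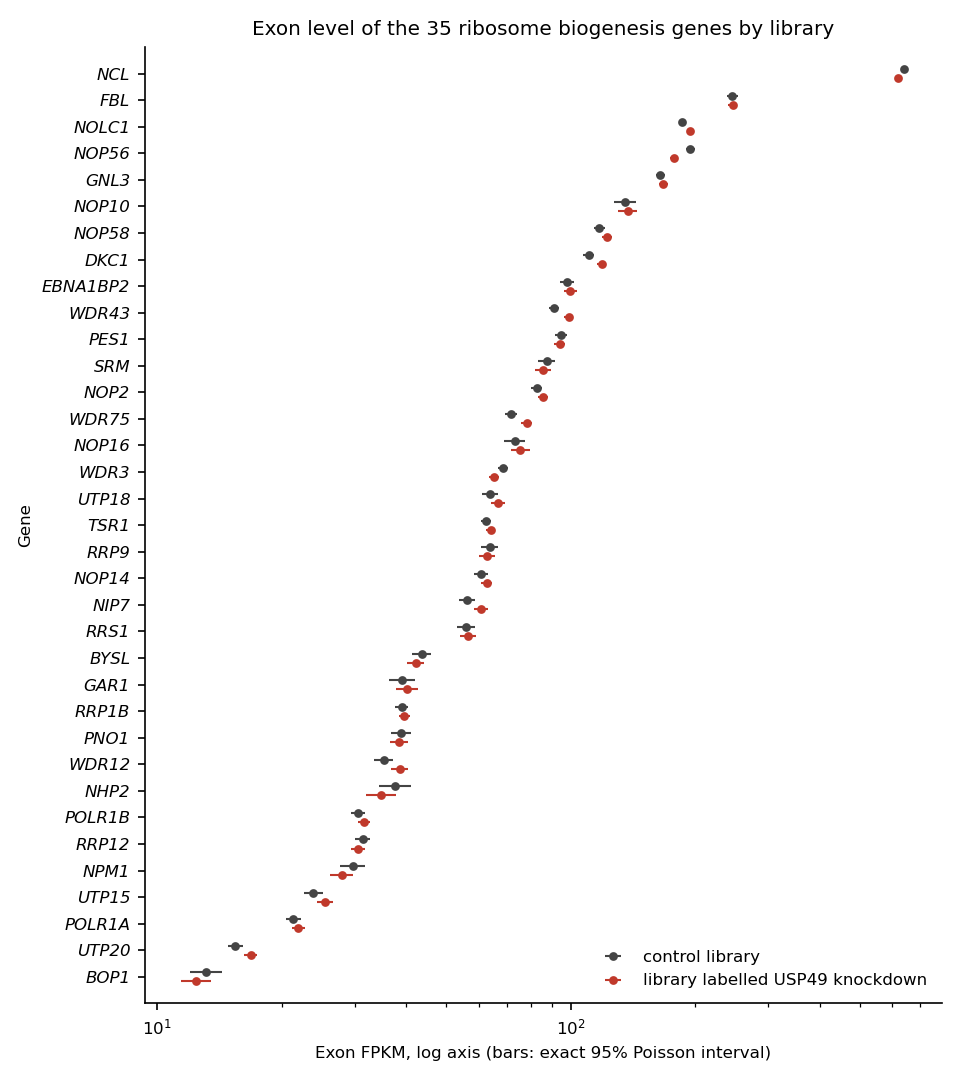
Exon FPKM of each of the 35 genes (log axis) in the control library and the library labelled USP49 knockdown; bars are exact 95% Poisson intervals. The order of the genes is nearly the same in both libraries, from BOP1 near 13 FPKM to NCL above 600 FPKM.

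The difference between the libraries was small for every gene of the set. No member was 1.2-fold or more higher, where 2.10% of all measured genes were, and none was 1.2-fold or more lower, where 3.75% were (5.86% either way). None was 2-fold or more higher or lower, beside 0.298% and 0.489%. Since those shares correspond to few genes in a set of this size, and 0.541% and 1.16% of the 7389 genes with as many control fragments were that far up or down, these counts of 0 are close to the background. All 35 lay within 0.15 of no difference, beside 78.6% of all genes and 86.0% of those with as many fragments. That bound lies just outside the members' own range, −0.13 to 0.12, so the count of 35 follows from where it was set. By FPKM summed over models 26 of the 35 lay within it, beside 60.3% of all genes. At this depth the counting interval of a member's ratio reached between 1.6% (NCL) and 12.3% to each side, on average.

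More of the genes were above 0 than below: 23 (65.7%) were higher in the library labelled knockdown and 12 (34.3%) lower. Of all measured genes 48.6% were higher and 51.4% lower, and of the 7389 genes with as many control fragments 51.0% and 49.0%. With models of each gene's own strand only, 26 were higher. The median difference was 0.03, beside −0.0038 over all genes, whose middle 95% ran from −0.31 to 0.24. For 7 genes (20%) the whole counting interval of the ratio was above 1, beside 13% of all genes, and for 3 (8.57%) it was below 1, beside 14.1%. Among the 7389 genes with as many control fragments these shares were 17.4% and 16.9%, so the share above 1 was close to its background. Of the 3 genes below 1, NOP56, which also gives the members' lowest difference, −0.13, was at 0.04 with models of its own strand only. The 15 genes with a promoter E-box had a median log2 difference between the libraries of 0.02 (range −0.05 to 0.12), and the 14 without one had 0.04 (range −0.13 to 0.12), so both sets covered much of the same range. Fewer cells making an RNA and less RNA per cell cannot be told apart in such bulk samples.

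**Figure D2:**
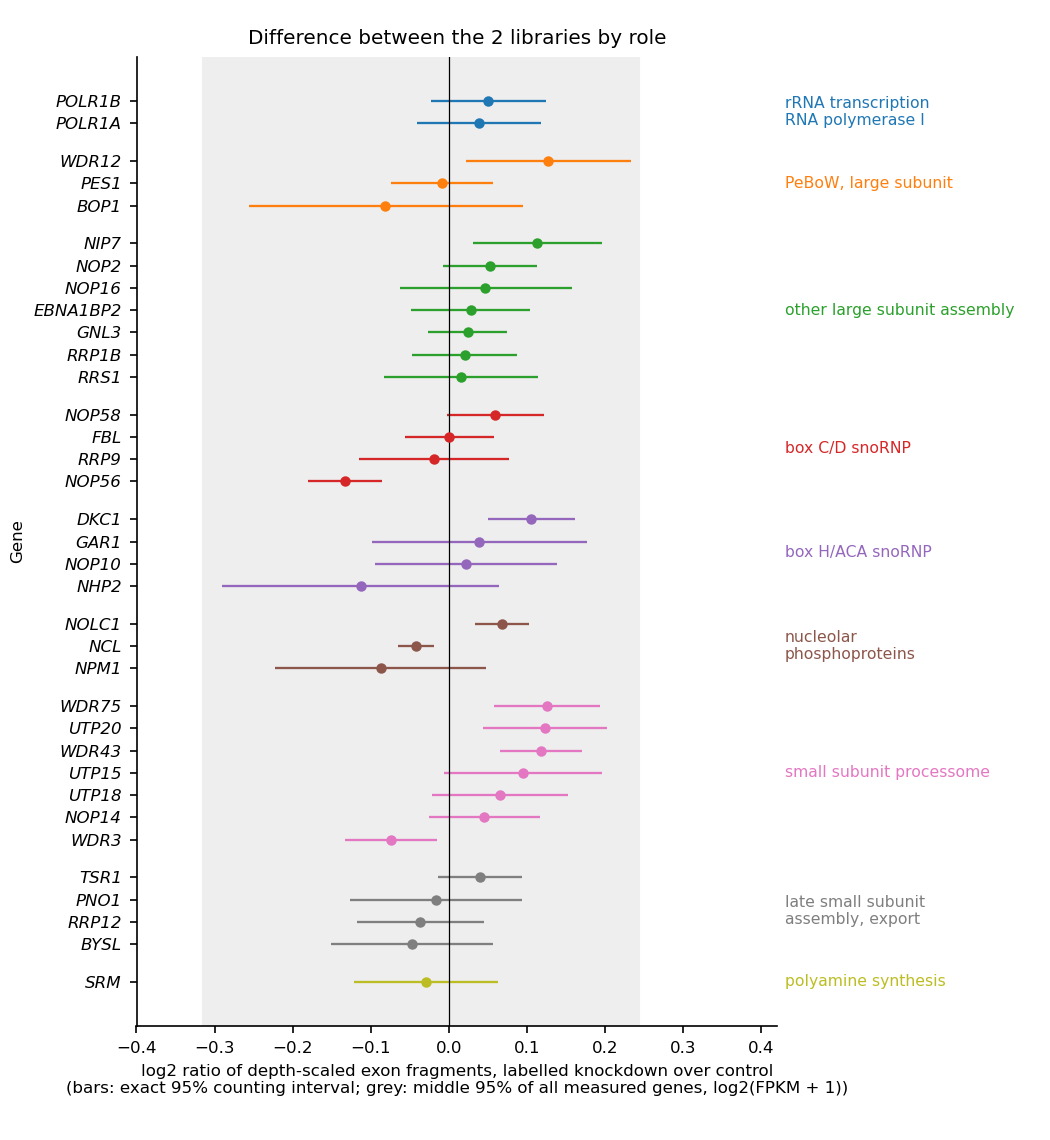
The log2 ratio of depth-scaled exon fragments (library labelled USP49 knockdown over control) for each gene, grouped by role; bars are exact 95% counting intervals and the grey band is the middle 95% of all measured genes by log2(FPKM + 1). All 35 points lie inside the band, and 6 of the 7 small subunit processome genes lie above 0.

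For RNA polymerase I itself, both subunits measured here were slightly higher. POLR1A, the largest, catalytic subunit, had 21.3 FPKM in the control library against 21.9 in the library labelled knockdown, a difference of 0.04. POLR1B, the second largest, had 30.5 and 31.6 FPKM, a difference of 0.05. Both counting intervals included 1.

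On exons, the small subunit processome genes had the highest median difference of any role with more than 1 gene, 0.09, with 6 of 7 above 0. By FPKM summed over models that rank did not hold. By that sum POLR1A and POLR1B were at 0.11 and 0.24, and the highest processome gene, WDR43, was at 0.12. WDR75, part of the early UTP-A subcomplex that binds the precursor RNA first, had 71.8 FPKM in the control library against 78.3 in the library labelled knockdown, a ratio of 1.09 (1.04 to 1.14). WDR43, another UTP-A protein, had 91.1 and 98.8 FPKM, a ratio of 1.08 (1.05 to 1.13). UTP20, a large scaffold protein, had 15.4 and 16.8 FPKM, a ratio of 1.09 (1.03 to 1.15). On exons, the library labelled knockdown was higher by more than counting error in each of these 3. By FPKM summed over models UTP20 was nearly level, with a difference of 0.0032. By that sum WDR75 (0.09) and WDR43 (0.12) were still higher. UTP15, also of UTP-A, had 23.9 and 25.5 FPKM, with an interval that just included 1 (0.996 to 1.14). UTP18 (63.8 and 66.8 FPKM) and NOP14 (60.7 and 62.6 FPKM) were higher by 0.06 and 0.04. WDR3, which sits with UTP18 in the UTP-B subcomplex, was the exception, with 68.6 and 65.2 FPKM and a ratio of 0.950 (0.912 to 0.990). WDR3 and UTP18 thus lay on opposite sides of 0, with counting intervals that overlapped slightly.

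Among the large subunit factors, the PeBoW complex of PES1, BOP1 and WDR12, which is needed to process the large subunit RNAs, had 3 unlike values. WDR12 had 35.3 FPKM in the control library against 38.5 in the library labelled knockdown, the largest positive difference of the set, 0.12, with a ratio of 1.09 (1.02 to 1.17). PES1 had 94.7 and 94.1 FPKM, a difference of −0.0087. BOP1 had 13.1 and 12.4 FPKM, a ratio of 0.945 (0.837 to 1.07). Only the WDR12 interval left out 1. All 7 other large subunit factors were above 0. NIP7, a factor of ribosomal RNA processing and large subunit assembly, had 56.1 and 60.7 FPKM and a ratio of 1.08 (1.02 to 1.15). NOP2, a ribosomal RNA methyltransferase, had 82.8 and 85.9 FPKM, and GNL3, the GTP-binding protein nucleostemin, had 165 and 168 FPKM. The remaining 4, NOP16, EBNA1BP2, RRP1B and RRS1, had differences between 0.02 and 0.05, and their counting intervals included 1, as did those of NOP2 and GNL3.

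FBL in the box C/D particle carries out 2′-O-methylation. Of the 4 box C/D genes of the set, 2 were above 0 and 2 below. FBL had 246 FPKM in both libraries, with a ratio interval of 0.962 to 1.04, though by the sum over models it was higher by 0.20. NOP58, the partner of NOP56 in the particle, had 117 and 122 FPKM, a ratio of 1.04 (0.998 to 1.09), and RRP9, which binds the U3 snoRNA, had 63.6 and 62.8 FPKM. NOP56 had the most negative difference of the set, with 195 FPKM in the control library against 178 in the library labelled knockdown, a difference of −0.13 and a ratio of 0.912 (0.882 to 0.942). That value rests on 1 assembled model of the control library, on the minus strand (chr20:2581250-2592868, 7339 exonic bases), which shares an intron with the neighbour IDH3B and spans the exons of NOP56. Its 2676 fragments, spread evenly over its length, put 773 on the exons of NOP56. With the models of the gene's own strand only, NOP56 had 6075.5 and 7610 fragments and a difference of 0.04, so its direction reversed. The library protocol describes no step that marks the strand, so fragments of the 2 strands could not be separated. This also touches GNL3, NIP7, EBNA1BP2, NOP14, WDR3 and TSR1, which share exonic bases with GLT8D1, COG8, CFAP57, NOP14-AS1, SPAG17 and SRR, so their values are uncertain by that overlap.

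The box H/ACA particle, which converts uridine to pseudouridine, had 3 of 4 genes above 0. DKC1, the pseudouridine synthase dyskerin, had 111 FPKM in the control library against 119 in the library labelled knockdown, a ratio of 1.08 (1.03 to 1.12). GAR1 had 39.1 and 40.2 FPKM and NOP10 had 135 and 138 FPKM, both with intervals that included 1. NHP2 had 37.6 and 34.7 FPKM, a ratio of 0.925 (0.818 to 1.05), and its difference of −0.11 became 0.02 with models of its own strand only. Of this particle DKC1 alone differed beyond counting error.

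Of the abundant phosphoproteins, NOLC1 and NCL differed beyond counting error, in opposite directions. NOLC1 had a ratio of 1.05 (1.02 to 1.07), from 11836 and 15120 fragments. NCL had a ratio of 0.971 (0.955 to 0.986) from 27956 and 33078 fragments, although its FPKM summed over models was higher by 0.07. NPM1, nucleophosmin, had 29.7 and 27.9 FPKM, a ratio of 0.941 (0.857 to 1.03), and its difference of −0.09 became 0.01 with models of its own strand only. The RefSeq table names 50 pseudogenes of NPM1, more than for any other member, so its level, at the 73.8th percentile, is uncertain.

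The late small subunit factors were nearly level. TSR1, an assembly factor of small subunit precursors, had 62.4 and 64.1 FPKM, while BYSL (43.6 and 42.2), RRP12 (31.4 and 30.6), an export factor, and PNO1 (38.9 and 38.5) were lower by 0.05, 0.04 and 0.02. All 4 counting intervals included 1. SRM, spermidine synthase, an enzyme of polyamine synthesis and not a nucleolar protein, had 87.6 and 85.8 FPKM, a difference of −0.03.

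BOP1 was the 1 gene of the set whose differences on exons and by FPKM summed over models lay 0.5 or more apart. By that sum SRM, at −0.03 on exons, was also 1.2-fold or more lower, at −0.32, and RRS1 (0.33) and GAR1 (0.29) were 1.2-fold or more higher. The RefSeq model of BOP1 was at 0 in both libraries, and its fragments lay on assembled models. In the control library these were a model of 1237 exonic bases with 306 fragments, which runs from 145390774 to 145485928 on chromosome 8, far past the annotated 3′ end at 145456864, and a model of 385 exonic bases with 205 fragments. In the library labelled knockdown they were models of 1237 and 1318 exonic bases with 488 and 102 fragments. The FPKM summed over these models was 52.7 in the control library against 24.6 in the library labelled knockdown, a difference of −1.07, past 2-fold, where 1.80% of all genes were 2-fold or more lower by that sum and 1.54% higher. By the same sum 26 of the 35 genes were above 0, beside 49.5%. The same fragments on the exons of BOP1 gave −0.07. The models found 7 and 8 of its 15 RefSeq introns.

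RefSeq models held fragments in 33 of the 34 genes with introns in each library, beside 89.0% and 88.8% of all measured genes with introns. Assembled models held fragments in 14 genes of the set in the control library (41.2%, beside 49.1% of all genes) and 17 in the library labelled knockdown (50%, beside 48.9%). More than 50% of the fragments lay on assembled models for POLR1A (71.1% and 65.4%) and BOP1 in both libraries, and for NPM1 (57.2%), GNL3, FBL and TSR1 in the library labelled knockdown. Models with at least 5% of the gene's fragments had the same full series of introns in both libraries for 18 of 34 (52.9%), beside 38.7%. A gene outside these 18 can still have the same single introns in both. FBL was carried by its RefSeq model alone in the control library, while in the other an assembled model that skips 1 exon, by an intron at chr19:45022996-45028770, was assigned 70.2% of its fragments. GNL3 had 0% of its fragments on assembled models in the control library and 75% in the other, and TSR1 16.8% and 59.9%. Unlike that of FBL, the assembled models of GNL3 and TSR1 in the library labelled knockdown had only RefSeq introns, 14 of 14 in each. The assembled TSR1 model of the control library had 11 of its 13 introns in RefSeq. The shares are the assembly's own division of fragments among models and not counts of reads across a junction.

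**Figure D3:**
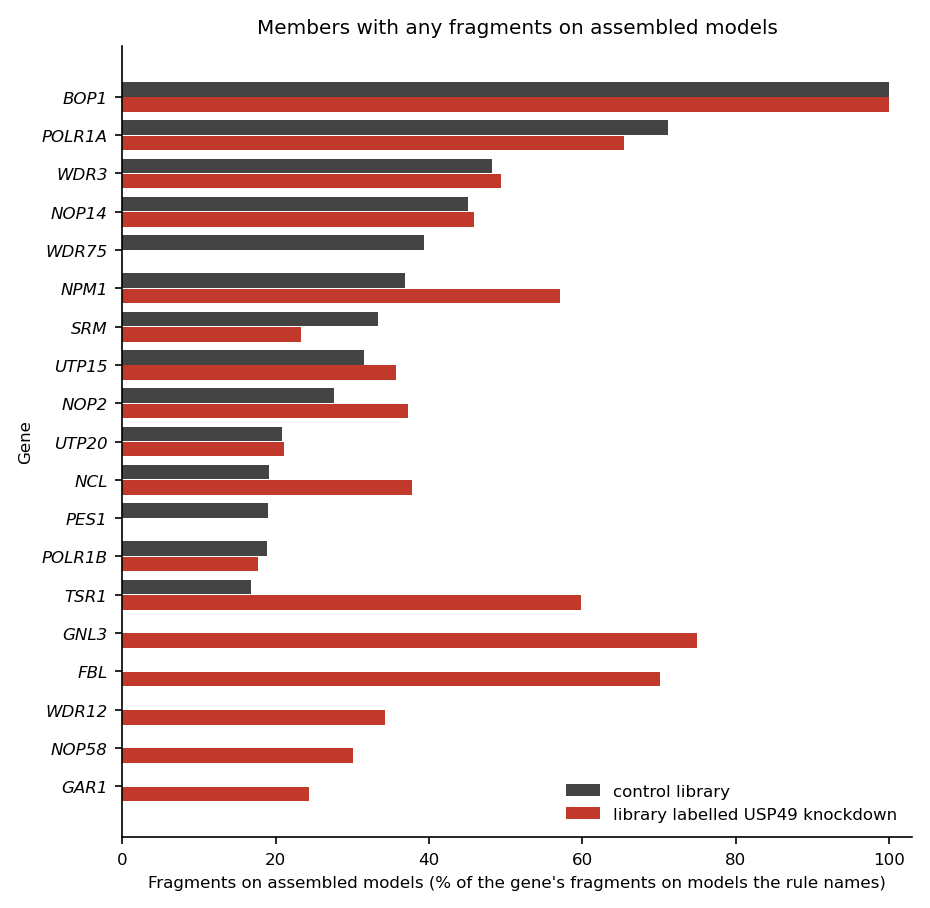
Share of each gene's fragments on assembled models, in percent, in each library, for the genes with any. BOP1 is at 100% in both; GNL3 and FBL are at 0% in the control library and at 75% and 70.2% in the library labelled knockdown.

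Introns absent from RefSeq were about as frequent as elsewhere. An intron absent from RefSeq was found in 8 of 34 genes (23.5%) in each library, beside 25.7% and 25.8% of all measured genes with introns. There were 9 such introns in the control library and 11 in the other, and 2 were in both (22.2% and 18.2% of each). Over all measured genes with introns, 1374 such introns were in both, 29.9% and 30% of each library's. The shared ones were in WDR3 (chr1:118274071-118277433) and NOP2 (chr12:6542942-6543040, which starts and ends 2 bases from a RefSeq intron). This NOP2 intron and the RefSeq one are both 99 bases long, and whether they are separate junctions was not tested. The models with the shared introns held 20.3% and 36.6% of the fragments of WDR3 and 27.5% and 22.2% of those of NOP2. An exon was skipped in 2 genes in each library (5.88%, beside 10.8% and 10.2%). UTP20 was one of them in both, at 2 different places.

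A RefSeq intron was kept within an assembled model in 3 of 34 genes in each library (8.82%, beside 9.58% and 9.17%): NOP2, NPM1 and NOP14. For NOP14 it was the same 623-base intron nearest the 3′ end (chr4:2909714-2910336), in models assigned 45.1% of the gene's fragments in the control library against 45.9% in the library labelled knockdown. These values are nearly equal. For NPM1 the intron at chr5:170767384-170770135 was kept in both. The models with it were assigned 36.9% of the gene's fragments in the control library against 57.2% in the library labelled knockdown. For NOP2 the kept introns differed between the libraries. In all, 5 introns were kept in the control library and 6 in the other, and 2 were in both (40% and 33.3%). Over all measured genes these shares were 49.1% and 50.9%.

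NOP56 is also annotated in 2 forms that differ around SNORD86. In the coding form an exon covers chr20:2584580-2584680, and in the noncoding form it runs on for 180 bases, to 2584860, and so holds all 86 bases of SNORD86 (2584743 to 2584828, hg18), whose sequence is printed above. The noncoding form was assigned 3981 of the gene's fragments in the control library, or 65.5%, and in the other 4973, or 65.3%. Its level was 113 and 116 FPKM, beside 65.0 and 67.2 FPKM for the coding form. The division between the forms was thus alike in both libraries, as the authors' assembly estimated it. The snoRNA model itself had 0 fragments in each.

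Fragments in introns outside these models were few. Unspliced assembled models lay within introns of 3 genes in the control library against 5 in the library labelled knockdown (8.82% and 14.7%, beside 22% and 23.1% of all genes). They held 91 and 87 fragments, 0.0715% and 0.0555% of the exon fragments of the set, where for all genes the figures were 1.15% and 1.06%. The largest was in NOP58, with 46 fragments at chr2:202871678-202871901 in the control library and 41 at nearly the same place in the other.

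Beyond these 35, the wider pathway was followed in lists of its other genes. Of 115 further biogenesis genes, 113 were measured (WDR46 and POLR1H were not), and 76 were above 0 (67.3%, beside 48.6% of all genes) and 37 below, with a median of 0.04. None was 1.2-fold or more higher. NOP9 was the 1 gene 1.2-fold or more lower, and with models of the gene's own strand only POLR1G joined it. By the sum over models 9 of the 113 were 1.2-fold or more higher and 8 lower. NOP9 had 17.2 FPKM in the control library against 9.04 in the library labelled knockdown. In the control library its fragments lay mostly on its RefSeq model, and in the other on 2 assembled models of 14704 and 14199 bases that join it to LTB4R2. So the models of NOP9 differed between the libraries along with its value.

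The other polymerase I genes, 13 of 14 measured, had a median of 0.03. POLR1E (44.0 and 49.7 FPKM), TAF1D (79.0 and 87.9) and POLR1D (34.8 and 37.2) were at the upper end. TAF1C (37.9 and 34.2), TCOF1 (45.9 and 42.3), the nucleolar protein treacle, and POLR1G (24.4 and 22.9) were at the lower end. POLR1G, at −0.09, was at −0.40 with models of its own strand only and at −0.50 by the sum over models. The small subunit list, 45 of 46 measured, had a median of 0.03, with UTP6 (32.9 and 37.4 FPKM), DDX47 (92.5 and 104) and NOL10 (32.8 and 36.7) highest. IMP4 (95.8 and 85.4 FPKM) and TSR3 (49.8 and 45.4) were lowest after NOP9. IMP4, at −0.16, was at 0.10 with models of its own strand only and at 0.03 by the sum over models, and NOL10, at 0.16, was at −0.25 by that sum. The large subunit list, all 55 measured, had a median of 0.06, with 39 above 0. DDX31 (14.7 and 17.5 FPKM), RRP8 (10.1 and 11.8) and RPF2 (27.6 and 30.5) stood at its top, and MYBBP1A (46.1 and 40.5), NOC2L (46.3 and 41.3) and WDR18 (74.8 and 67.2) at its foot. DDX31, at 0.24, was at 0.06 with models of its own strand only, and NOC2L, at −0.16, was at −0.76 by the sum over models. In all 3 lists the genes spread to both sides of 0.

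MYC itself had 155 FPKM in the control library against 149 in the library labelled knockdown, a ratio of 0.959 (0.926 to 0.993), and its partner MAX had 19.9 and 19.7 FPKM. Of 10 measured genes of the MYC network, 4 were above 0, and MYCN had no fragments. MLX (51.3 and 60.5 FPKM), MGA (12.7 and 14) and MXD1 (1.63 and 1.77) were highest. MLX was at 0.24 on exons and at 0.41 with models of its own strand only, and MGA, at 0.13 on exons, was at −0.02 by the sum over models. MNT (7.96 and 6.44 FPKM), the only gene of the network 1.2-fold or more lower, MXD4 (8.62 and 7.26) and MXD3 (13.6 and 12.7) were lowest. The counting intervals of the ratio included 1 for MXD3 (0.846 to 1.04) and MXD1 (0.872 to 1.35).

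The cytosolic ribosomal protein genes, which encode the parts that these factors assemble, lay the other way, with 17 of 76 measured genes above 0 (22.4%, beside 48.6% of all genes) and a median of −0.08. Of the 76, 10 were 1.2-fold or more lower (13.2%, beside 3.75%) and 2 higher (2.63%, beside 2.10%). Among those with at least 100 fragments, RPL6 (20.3 and 12.9 FPKM), RPL7A (27.7 and 19.0) and RPL10A (41.2 and 28.6) were lowest. RPL21 (13.8 and 20.3), RPS21 (204 and 243) and RPS2 (16.0 and 18.5) were highest. Many ribosomal protein genes have near-identical processed copies, so single values are uncertain, and the difference between this list and the 35 genes was not tested. RPL7A and RPL10A, lower on exons, were higher by the sum over models, by 0.30 and 0.41. RPS2, higher on exons, was at 15.3 FPKM in the control library by that sum and listed at 0 in the other.

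**Figure D4:**
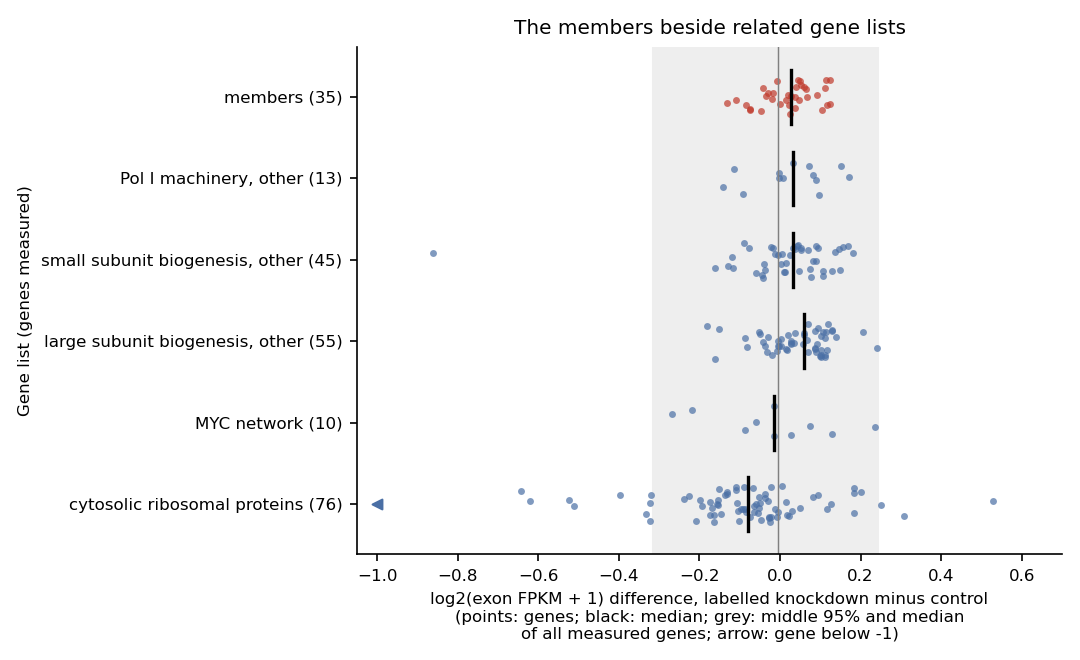
Difference of log2(exon FPKM + 1) between the libraries for each gene (points) of the set and of 5 related lists, with medians in black; the grey band and line are the middle 95% and the median of all measured genes. The 35 genes have a median of 0.03 and the 76 ribosomal protein genes one of −0.08.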

How the data were processed

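Poly(A) RNA was measured in 2 libraries, 1 per group. Per the submitters' processing notes, reads were handled with Bowtie, TopHat, Cufflinks, SAMtools, bedtools and Picard on the build hg18, with versions not given in the sources used here. The authors deposited 1 transcript assembly per library, whose value named FPKM is, from the values, not divided by depth: in 5123 of 5123 single-model loci of the control library and 5188 of 5188 of the other, it gave back a fragment number that was whole within 0.02 from value × 2 × (length − 47 bases). Fragment numbers were recovered this way, spread evenly over each model's exons on either strand, summed on RefSeq exons and scaled to the library totals (16381149 and 19964369). Log2 differences used a pseudocount of 1 FPKM. Ratio intervals are exact 95% Clopper-Pearson intervals on the recovered fragment numbers, rounded to whole numbers, and cover counting error only. They leave out the assembly's division of fragments among models and the even spread over exons. PCR copies are not independent molecules, so the intervals may be too narrow even for counting error. Symbols were matched by accession in the RefSeq table of GRCh38.p14, and file coordinates are 1-based hg18.

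The genes and lists were chosen with earlier results of these data known. Named in full were the 6 highest and 6 lowest members with at least 100 fragments in each library, those whose 2 measures differed by 0.5 or more, and the 4 highest levels, and from each list its 3 highest and 3 lowest. MYC and MAX were named after their values were seen. Python 3.11.15, pandas 2.3.3 and scipy 1.17.1 were used, and the scripts were tested on simulated data. The alternatives were other sets of models, scalings, pseudocounts and minimum levels. In the marker lists, 1 item is not reported here.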

Additional observations from a re-analysis of the deposited data

How the results depend on the processing

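With 1 library per group no replicate could be left out. No paired analysis was possible because each group had 1 library. The counts of members past 1.2-fold and 2-fold stayed at 0 under TPM, scaling to the median ratio, and pseudocounts of 0.1 and 5. They also stayed at 0 with no minimum level, a minimum of 5 FPKM, and models of the gene's own strand only. The same held for genes whose models had the same full series of introns in both libraries. In that last set 13 of 19 members were above 0. With only the models that the naming rule gives to a gene, 1 member was 1.2-fold or more higher: RRS1, at 0.33, since an unspliced assembled model over it, with 870 and 855 fragments, was left out. With summed FPKM, 2 members were 1.2-fold or more higher, 2 lower and 1 (BOP1) past 2-fold, and 15 members moved by more than their counting interval. Left as deposited, without scaling to depth, 35 members were above 0, 24 were 1.2-fold or more higher and the median was 0.31, with a median of 0.26 over all genes, 47.4% of which were then 1.2-fold or more higher and 1.12% lower. Members with an unspliced model in an intron of the library labelled knockdown numbered 3 in place of 5 when models under 200 bases were left out. With models of the gene's own strand only, 26 members were above 0, since NOP56, NHP2 and NPM1 changed sign.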
